A study of Mus musculus with 8 samples.

Results

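Mouse embryonic stem cells in which the Mll1 gene had been deleted were compared with stem cells kept in the 2 kinase inhibitors known as 2i, across 15805 gene loci. The loci were chosen as those that carried a gene name, had the status OK in both groups and had at least 100 estimated counts in either group. They are 15805 of the 61535 loci in the deposited tables. Another 11475 loci carried no name, 149 named loci lacked the status OK in a group, and 34106 had fewer counts in both. Just inside the limit of 100 counts were Ikzf3 and Hist1h1a, with log2 ratios between the groups of −0.68 and −0.07. Just outside it were Gm15894 and Gm12321, with −0.10 and −0.18.

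All cells were embryonic stem cells derived from blastocysts of the strain C57BL/6J, with the genotype Mll1fl/fl; Cre-ER TM, grown with leukemia inhibitory factor (LIF) on feeder cells, which are mouse embryonic fibroblasts. The Mll1-deleted group was given 4-hydroxytamoxifen (4-OHT) at 5 µM for 5 days in medium with 15% fetal calf serum, so that the drug-activated Cre recombinase could cut out the floxed part of Mll1. The 2i group was given PD03259010, as the labels spell this MEK inhibitor, at 1 µM, together with CHIR99021, which inhibits GSK3, at 3 µM, for 5 days in medium with 20% KSR, a serum replacement, and was not given 4-OHT. Untreated cells of the same genotype are used below as a further value, and the sources used here do not give their medium. Deletion with 4-OHT in serum against 2 inhibitors in serum replacement is therefore the comparison made, and drug, deletion and medium cannot be told apart. There were 2 libraries in each group. The tables hold 1 value per group that pools them, so no spread between replicates, SD or test can be given. The labels name no cell line clone and no vehicle group was used here.

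MLL1, the protein of Mll1 (official symbol Kmt2a), is a histone methyltransferase that marks lysine 4 of histone H3 at promoters and enhancers. It is best known for keeping HOX genes active. In 2i, the MEK inhibitor blocks signals from FGF through ERK, and the GSK3 inhibitor stabilises β-catenin, which carries the WNT signal. Together they hold mouse stem cells in the naive state of the early epiblast, with low expression of the de novo DNA methyltransferases. Cells in serum are more mixed, and some of them move towards the formative and primed states that come before germ layers.

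Values below are FPKM, the fragments per kilobase of transcript scaled to sequencing depth, as the authors deposited them. Square brackets hold the authors' deposited lower and upper limits. A log2 ratio is that of FPKM + 1 in Mll1-deleted over 2i cells, so that a positive ratio means a higher value after deletion. A locus is called higher or lower when this ratio is at least 1 in size, which is 2-fold. It is called with separate intervals when, in addition, the deposited limits of the 2 groups do not overlap. Ratios with an added 1 understate the difference of low loci. Total estimated counts were 88203834 in Mll1-deleted and 90728747 in 2i cells, of which the 15805 loci held 97.2% and 98.5%. The median locus had limits that reached 31.5% of its FPKM to each side in Mll1-deleted and 30.9% in 2i cells.

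Of the 15805 loci, 550 (3.48%) were at least 2-fold higher in Mll1-deleted cells and 533 (3.37%) at least 2-fold lower, which makes 1083 (6.85%) in all. With separate intervals, 391 (2.47%) were higher and 415 (2.63%) lower, together 806 (5.1%). Hence 50.8% of the calls were higher in Mll1-deleted cells by FPKM, while estimated counts in place of FPKM gave 2432 calls, of which 66.2% were higher in Mll1-deleted cells. The median ratio over all loci was −0.01, with quartiles at −0.35 and 0.35. These shares are the background against which the counts of each gene list below can be read.

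**Figure D1:**
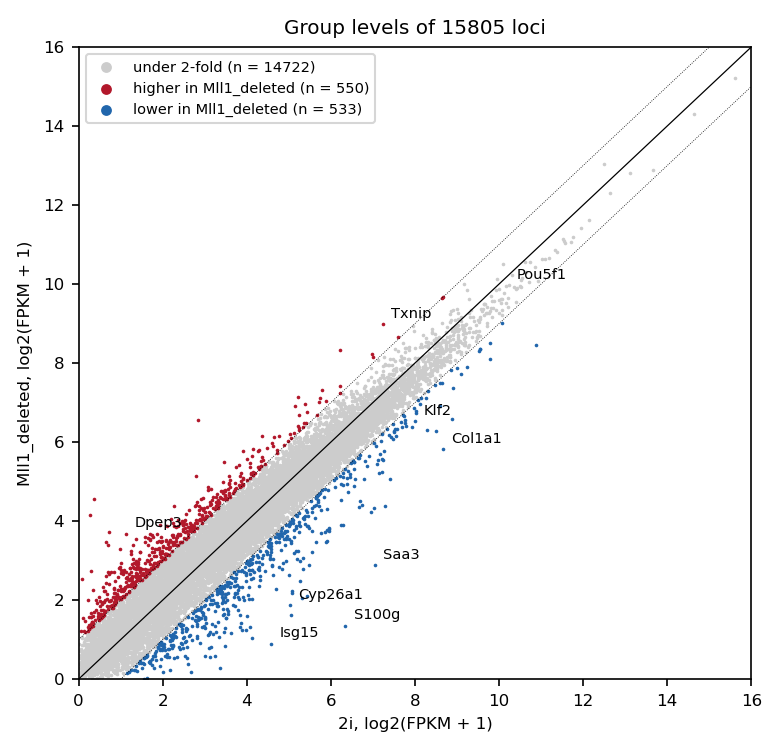
Each point is a locus, with log2 of FPKM + 1 in 2i cells on the horizontal axis and in Mll1-deleted cells on the vertical axis. The solid line marks equal values and the dotted lines 2-fold differences. Most of the 15805 loci lie between the dotted lines, 550 lie above them and 533 below, and S100g, Saa3 and Isg15 lie farthest below the line among the genes written out.

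Calls were spread unevenly over expression levels, taken as the larger FPKM of the 2 groups. Among the 1645 loci above 100, 19 were higher in Mll1-deleted cells and 73 lower, with a median ratio of −0.30. Among the 2011 loci between 5 and 10, 139 were higher and 94 lower, with a median of 0.10. None of the 1325 loci under an FPKM of 1 was called, because the added 1 does not let them reach 2-fold. Of the 12002 loci annotated as protein coding, 445 were higher and 418 lower. Long intergenic RNAs counted 9 higher and 9 lower of 204 loci.

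Kmt2a, the deleted gene, lies on chromosome 9 from 44803333 to 44884397 in mm10. Its FPKM was 15.5 [11.4 to 19.7] in untreated, 11.8 [8.71 to 14.9] in Mll1-deleted and 8.72 [6.11 to 11.3] in 2i cells. The log2 ratio of Mll1-deleted over 2i cells was 0.40, with overlapping intervals. The lowest value of the gene was thus not in the group labelled as deleted. The labels do not say which exons are floxed, and reads from exons outside the floxed part still count here. The value therefore does not check the deletion.

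The partners of MLL1 differed little between the groups. None of the 19 loci of the MLL and SET1 complexes was called in either direction. Their median ratio was −0.05, and 0.04 by estimated counts. The core subunits that all these complexes share were close to equal. Wdr5 was at 173 in Mll1-deleted and 195 in 2i cells, Ash2l at 162 and 175, Dpy30 at 138 and 161, and the locus of Rbbp5 at 75.5 and 68.5. Kmt2b, the nearest relative of MLL1, shared a locus with Zbtb32, which stood at 66.3 and 52.2. The scaffold menin, encoded by Men1, which joins MLL1 and MLL2 to their targets, was at 58.2 and 76.4. The largest ratios of the list, below 2-fold, were 0.81 for Kmt2c, another methyltransferase of the family, and −0.78 for Setd1b, a SET1 methyltransferase.

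HOX genes, the classic targets of MLL1, were low in both groups, apart from the locus that includes Hoxb9. Of their 28 loci, 24 had ratios below 0, with a median of −0.57, and 2 were called lower. By estimated counts the median was −0.86 and 13 loci were lower. One of the called loci joined Hoxc10, Hoxc12 and Hoxc5 and stood at 1.97 in Mll1-deleted, 6.20 in 2i and 2.58 in untreated cells, with separate intervals between deletion and 2i. The other joined Hoxb9 with Gm53 and Mir196a-1, at 62.0, 129 and 113, and its intervals overlapped. Hoxa9 had an FPKM of 0.492 in Mll1-deleted, 1.91 in 2i and 1.63 in untreated cells at 1 of its loci, and 0.962, 1.01 and 1.72 at the other. Hoxa7 was at 0.660, 2.25 and 1.26, and Hoxb7 at 0.431, 1.74 and 1.35. Hoxd1 had the highest ratio of the list, 0.43. Polycomb complexes, which oppose MLL proteins at many HOX genes, had 1 call among 26 loci. It was Phf19, an accessory subunit of PRC2, at 6.19 in Mll1-deleted and 1.46 in 2i cells with a ratio of 1.55. The catalytic subunit gene Ezh2 was at 86.1 and 76.1, and Suz12 at 140 and 80.6.

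The pluripotency genes marked both groups as embryonic stem cells. All 27 genes of the list had loci among the 15805, and 1 of the 28 loci was higher in Mll1-deleted cells and 2 were lower, with a median of −0.06. By estimated counts, or with the median ratio set to 0, 2 were higher and 1 was lower. Pou5f1, which encodes OCT4, was at 1008 [793 to 1223] in Mll1-deleted and 1196 [945 to 1448] in 2i cells. Nanog was at 380 and 350, Sox2 at 335 and 286, and the main Esrrb locus at 323 and 369. These 4 core factors all had overlapping intervals between the groups.

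Of the 3 called pluripotency genes, 2 had untreated values near those of deletion and 1 near that of 2i. Klf2, a naive factor, was at 95.0 [77.6 to 112] in untreated, 91 [74.3 to 108] in Mll1-deleted and 255 [214 to 295] in 2i cells, with a ratio of −1.47. The 2i value stood apart from both others. Gbx2, a homeobox gene downstream of LIF and STAT3, was at 17.1, 18.4 and 5.18 in the same order, with a ratio of 1.65. Here too the untreated interval overlapped that of deletion only. Nr0b1, which encodes the nuclear receptor DAX1, was at 74.2, 45.1 and 91.4 with a ratio of −1.0, close to the limit of 2-fold. Its untreated interval overlapped that of 2i only. Tfcp2l1 shared a locus with Gm23497, at 243 in Mll1-deleted and 382 in 2i cells, and Prdm14 was at 24.1 and 29.6, all under 2-fold. Utf1 and Tdgf1 were nearer to 2-fold in the other direction, with ratios of 0.84 and 0.98.

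Genes of the formative and primed epiblast counted 4 higher and none lower of 16 loci, with a median of 0.25. All 4 had separate intervals. Tcf15, a bHLH factor linked with the exit from the naive state, was at 43.2 in untreated, 53.2 in Mll1-deleted and 13.9 in 2i cells, with a ratio of 1.86. Pou3f1, which encodes OCT6, was at 10.3, 4.21 and 1.24, so that both treated groups were below untreated cells and 2i the lowest. Sox11, a SOX family transcription factor, had a ratio of 1.01. Other markers of this state were lower in both treated groups than in untreated cells and under 2-fold between the treated groups. Fgf5 was at 8.66 in untreated cells but at 0.473 in Mll1-deleted and 0.498 in 2i cells. Otx2 was at 33.2, 10.2 and 7.96, and Lef1 at 14.3, 3.77 and 2.94. Sox1, a neural factor from the list of neural ectoderm, was at 4.07, 5.51 and 0.803 with a ratio of 1.85, and it was the only called locus of 8 in that list.

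DNA methylation genes had the highest median of the 32 lists, 0.80. All 8 loci had ratios above 0, and 4 of them were at least 2-fold higher in Mll1-deleted cells, 2 with separate intervals. Dnmt3a, a de novo methyltransferase, was at 178 [112 to 245] in untreated, 138 [89.2 to 186] in Mll1-deleted and 52.8 [32.4 to 73.1] in 2i cells, with a ratio of 1.37. Its cofactor Dnmt3l was at 104 [79.4 to 129], 169 [130 to 207] and 73.8 [58.2 to 89.4], with a ratio of 1.18. The untreated value of Dnmt3a overlapped that of deletion, and the untreated value of Dnmt3l that of 2i. Tet2 and the Tet1 locus, of enzymes that oxidise methylated cytosine, had ratios of 1.18 and 1.12 with overlapping intervals. The locus of Dnmt3b did not separate the groups, at 35.3 in Mll1-deleted and 24.8 in 2i cells, and stood at 89.5 in untreated cells. The maintenance genes Dnmt1 and Uhrf1 were at 152 and 190 in Mll1-deleted and at 127 and 178 in 2i cells.

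Germline genes that promoter methylation is known to silence were higher in Mll1-deleted cells at 4 of 25 loci and lower at 1, with a median of 0.31. Dpep3, a dipeptidase of germ cells, was at 1.47 in untreated, 11.9 in Mll1-deleted and 1.19 in 2i cells, with a ratio of 2.56. Tex101, a germ cell surface protein, was at 0.463, 3.66 and 0.555 with a ratio of 1.58. In both, the value after deletion stood apart from the other 2 groups. Mov10l1, a helicase of the piRNA pathway, had a ratio of 1.78 with overlapping intervals. Ddx4, the germ cell gene also known as Vasa, had a ratio of 1.12. Sycp1, a protein of the synaptonemal complex, was lower, at 6.65 against 16.3. Genes of the 2-cell-like state had 16 of 18 ratios above 0 and a median of 0.51, with 2 called higher and 1 lower. The called ones were Usp17le at 10.3 against 2.79, the locus of Gm12794 and Gm12800 at 8.23 against 1.73, and Rpl10l at 49.1 against 119. Usp17 and Zscan4 genes are families of near-identical copies, so reads may have been divided among them.

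**Figure D2:**
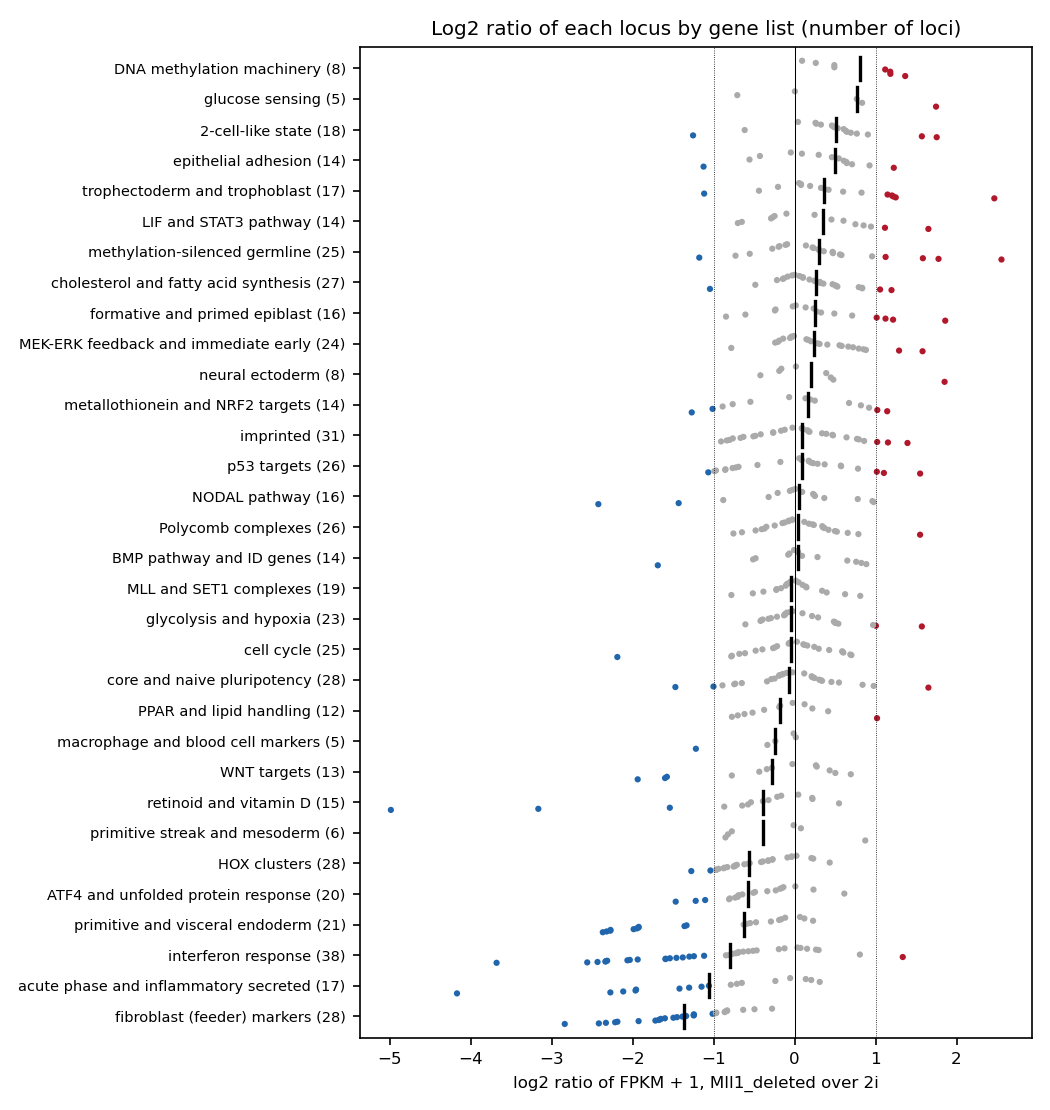
Each row is a gene list with its number of loci, and each point is the log2 ratio of FPKM + 1 in Mll1-deleted over 2i cells for a locus. Red points are at least 2-fold higher and blue points at least 2-fold lower in Mll1-deleted cells, and black bars are list medians. The medians run from −1.36 for fibroblast markers at the bottom to 0.80 for DNA methylation genes at the top.

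Feedback genes of the MEK and ERK pathway, which MEK inhibition lowers, were higher in Mll1-deleted cells at 2 of 24 loci and lower at none, with a median of 0.24. Spry4, an inhibitor of receptor signalling, was at 27.6 in untreated, 46.8 in Mll1-deleted and 15.0 in 2i cells, with a ratio of 1.58. Dusp4, a phosphatase of ERK, was at 8.85, 11.3 and 4.04 with a ratio of 1.29. Dusp6, another ERK phosphatase, was at 47.4, 47.3 and 26.9, with a ratio of 0.79. Several usual reporters of the pathway did not separate the groups. Etv4 was at 105 in Mll1-deleted and 91.3 in 2i cells, Etv5 at 86.1 and 76.5, and Spry2 at 141 and 106. Fos was at 99.5 and 104, and Egr1 at 49.2 and 30.7.

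WNT targets had 3 lower and no higher loci of 13, with a median of −0.28. Notum, an enzyme that inactivates WNT ligands, was at 24.4 in untreated, 6.91 in Mll1-deleted and 29.3 in 2i cells, with a ratio of −1.94. Its untreated interval overlapped that of 2i. Cdx1, a caudal homeobox gene, was at 1.09, 1.68 and 7.12, and Dkk1, a secreted WNT antagonist, at 1.20, 0.932 and 4.77, with ratios of −1.60 and −1.58. In these 2 genes the untreated interval overlapped that of deletion. Axin2, a widely used WNT reporter, was at 4.38, 7.54 and 10.6, with a ratio of −0.44. Lef1 and Tcf7, which encode partners of β-catenin, were not lower, with ratios of 0.27 and 0.43.

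In the NODAL pathway 2 of 16 loci were lower and none higher. Lefty2, a secreted inhibitor that the signal induces, was at 57.1 [44.7 to 69.5] in untreated, 10.2 [7.17 to 13.2] in Mll1-deleted and 59.1 [46.2 to 71.9] in 2i cells, with a ratio of −2.43. Its untreated interval overlapped that of 2i only. The related inhibitor Lefty1 behaved otherwise, at 89.0 in untreated but 14.0 and 14.6 in the treated groups. The ligand gene Nodal was at 50.1 and 51.1 in Mll1-deleted and 2i cells, and its receptor genes Acvr1b and Acvr2a were under 2-fold as well. Of 14 loci of the BMP pathway, Id3 alone was called, an inhibitor of bHLH factors, at 73.9, 46.1 and 151 with a ratio of −1.69. Id1 shared a locus with H13, at 40.3 in Mll1-deleted and 58.0 in 2i cells, and Id2 was at 5.71 and 2.79. In the LIF pathway the receptor gene Lifr was higher, at 14.4 against 6.09 with a ratio of 1.12, beside Gbx2. Stat3 was at 71.6 and 76.9 and Klf4 at 275 and 232.

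Primitive and visceral endoderm genes were lower in Mll1-deleted cells at 10 of 21 loci (47.6%), all with separate intervals, and higher at none. The median ratio was −0.63, and −1.39 by estimated counts. Transcription factors that specify endoderm were among them. Sox17 was at 12.6 [9.75 to 15.4] in untreated, 5.19 [3.85 to 6.53] in Mll1-deleted and 31.0 [24.4 to 37.6] in 2i cells, with a ratio of −2.37. Gata4 was at 17.6, 6.62 and 28.0, Gata6 at 10.8, 3.45 and 10.2, and Foxa2 at 6.08, 1.27 and 7.76. In Gata4, Gata6 and Foxa2 the untreated interval overlapped that of 2i only, so the low group was the deletion. Over all 10 called loci, the untreated interval overlapped that of 2i only in 4, that of deletion only in 2, both in 1 and neither in 3. The same shares over all 415 lower loci with separate intervals were 22.7%, 37.1%, 19.3% and 21.0%. Basement membrane genes of the list were also lower in Mll1-deleted than in 2i cells, and the part of feeder cells in this was not tested. Col4a1 was at 95.5 against 467, Col4a2 at 32.8 against 168 and Lama1 at 35.9 against 139. Cited1, a transcriptional coactivator, had a ratio of −2.27, and Srgn, a secretory granule proteoglycan, of −1.99. Other endoderm genes did not separate the groups. Dab2 was at 35.4 and 32.5, Lrp2 at 13.5 and 14.7, and the locus of Pdgfra at 23.7 and 22.6.

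Trophoblast genes pointed the other way at low levels, with 5 of 17 loci higher and 1 lower. Hand1, a bHLH factor of trophoblast and heart, was at 0.392 in untreated, 4.83 in Mll1-deleted and 0.0551 in 2i cells, with a ratio of 2.47. Krt7 was at 1.44, 5.00 and 1.58, and the locus of Ascl2, a factor of the placenta, at 2.07, 5.09 and 1.56. Sct and Wnt7b had ratios of 1.20 and 1.15. The keratin gene Krt19 was lower, with a ratio of −1.12. Gata3 shared a locus with 9230102O04Rik, at 1.38 and 0.568, Tfap2c was at 53.1 and 51.1, and Eomes at 4.47 and 4.19. Of the 14 primitive streak genes listed, 6 had a locus among the 15805, and none of these was called. T, which encodes brachyury, was at 0.220 and 1.09.

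Fibroblast genes had the lowest median of the 32 lists. All 28 loci had ratios below 0, with a median of −1.36, and 19 (67.9%) were at least 2-fold lower in Mll1-deleted cells, 18 of them with separate intervals. The feeder cells are fibroblasts, and their marker list summed to an FPKM of 2589 in untreated, 1600 in Mll1-deleted and 5405 in 2i cells. Without the largest locus the sums were 2041, 1249 and 3521. The main collagen genes led the list. Col1a1 was at 79.5 [66.9 to 92.1], 55.3 [39.8 to 70.8] and 402 [335 to 469], with a ratio of −2.84, and its untreated interval overlapped that of deletion. Col1a2 was at 112, 77.3 and 363. The locus of Col3a1 was at 547, 351 and 1884, with wide intervals that overlapped. Lum, a proteoglycan, had a ratio of −1.93, Vim, the intermediate filament vimentin, −1.34, and Acta2, smooth muscle actin, −1.25. The smallest ratio was −0.28 for Thbs1. Among the 18 with separate intervals, the untreated interval overlapped deletion only in 7, 2i only in 5, both in 2 and neither in 4. The same shares over all 415 lower loci with separate intervals were 37.1%, 22.7%, 19.3% and 21.0%. In pooled RNA, fewer cells of a type and less RNA per cell cannot be told apart. The labels do not say whether feeder cells were removed before RNA was taken, and the part of feeder cells in the differences of the other lists was not tested. Of the 10 macrophage and blood genes listed, 5 had a locus among the 15805, and the locus of Lyz1 and Lyz2 was lower, with a ratio of −1.22. Ratios were below 0 at 4 of the 5 loci, with a median of −0.24, and −0.63 by estimated counts. Csf1r, a receptor of macrophages, was low in both groups at 0.486 and 0.471 and had the only ratio above 0. Adgre1 had a ratio of −0.24, and −1.15 by estimated counts.

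**Figure D3:**
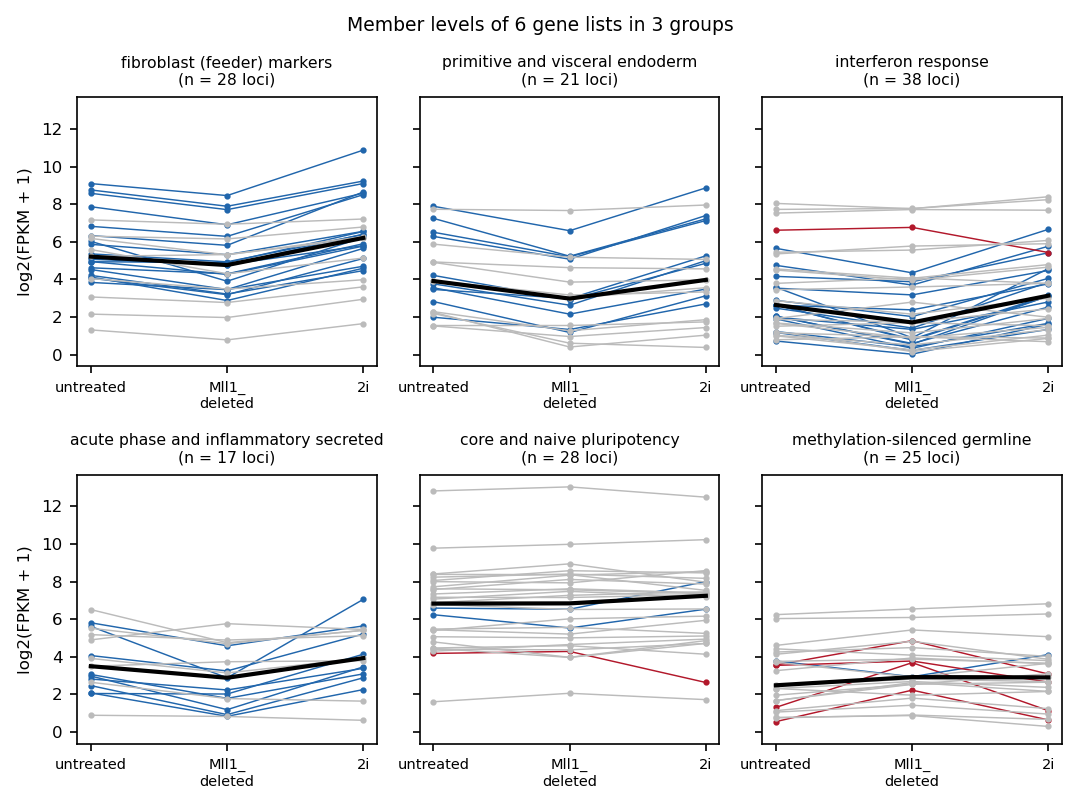
Each panel is a gene list, with log2 of FPKM + 1 of each locus in untreated, Mll1-deleted and 2i cells. Red lines are loci at least 2-fold higher and blue lines at least 2-fold lower in Mll1-deleted than in 2i cells, grey lines are the rest, and the black line is the median. In the fibroblast, endoderm, interferon and acute phase panels the median is lowest in Mll1-deleted cells, while in the pluripotency panel the lines are close to flat.

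Interferon response genes were lower in Mll1-deleted cells at 17 of 38 loci (44.7%), 16 with separate intervals, and higher at 1. Their median was −0.80, and 31 ratios were below 0. Isg15, a ubiquitin-like protein that interferon induces, was at 11.0 [8.49 to 13.5] in untreated, 0.862 [0.400 to 1.32] in Mll1-deleted and 22.9 [18.2 to 27.6] in 2i cells, with a ratio of −3.68. Usp18, which removes ISG15 from proteins, was at 3.13, 0.472 and 7.70 with a ratio of −2.56. In both genes the 3 intervals were apart, with untreated cells in the middle. Among the 16 with separate intervals, the untreated interval overlapped 2i only in 5, deletion only in 3, both in 3 and neither in 5. The same shares over all 415 lower loci with separate intervals were 22.7%, 37.1%, 19.3% and 21.0%. Oasl2, of the oligoadenylate synthetase family, had a ratio of −2.33, Ifi27 of −2.32, and the larger Ifit1 locus, of an RNA-binding inhibitor of translation, of −1.94. Irf7, a transcription factor that amplifies the response, was at 1.67 against 13.4 with intervals that overlapped. Ifitm1 was the exception, at 108 in Mll1-deleted and 42.2 in 2i cells with a ratio of 1.34. It encodes a membrane protein of a family that restricts virus entry. The sensors and signal carriers differed less. Stat2 was at 16 and 12.8, Ddx58, which encodes RIG-I, at 14.6 and 24.2, and Bst2 at 210 and 204. The fibroblast sums of 1600 and 5405 moved in the same direction as these genes, and their part in the result was not tested.

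The promoters of these genes are known for the interferon-stimulated response element, to which STAT and IRF factors bind. Windows of 300 bases, from 250 before to 50 after the start of each gene, were searched for GAAANNGAAA on both strands. These are RefSeq sequences of the build GRCm38.p6, and matches may overlap. Of 27 genes of the interferon list with a window, 12 (44.4%) held a match, against 3.99% of the 27025 genes with a window. Within the list, 5 of the 12 genes that were lower held one and 7 of the 15 others. Among all loci of 1 name, 16 of 262 (6.11%) that were lower with separate intervals held a match and 4 of 249 (1.61%) that were higher, against 311 of 9518 (3.27%) of all such loci with a window. A match is a description of letters and not a bound site. Shown here are the windows of 4 lower genes with matches, 5′ to 3′ on the gene's strand, with all matches in capitals.
Isg15, chr4:156200769-156201068, minus strand: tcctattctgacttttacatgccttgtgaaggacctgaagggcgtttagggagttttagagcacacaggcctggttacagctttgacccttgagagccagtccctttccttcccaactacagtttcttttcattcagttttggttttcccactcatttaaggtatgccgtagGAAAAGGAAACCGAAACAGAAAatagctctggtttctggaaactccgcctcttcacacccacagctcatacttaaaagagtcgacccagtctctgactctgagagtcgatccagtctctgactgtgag
Ifit1, chr19:34640639-34640938, plus strand: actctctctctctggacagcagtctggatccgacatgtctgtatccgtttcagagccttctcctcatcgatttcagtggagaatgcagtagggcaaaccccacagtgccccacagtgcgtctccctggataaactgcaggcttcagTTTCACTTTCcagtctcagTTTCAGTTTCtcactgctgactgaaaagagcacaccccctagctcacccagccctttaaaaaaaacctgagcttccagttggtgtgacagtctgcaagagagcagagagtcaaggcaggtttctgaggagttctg
Ifit3, chr19:34583279-34583578, plus strand: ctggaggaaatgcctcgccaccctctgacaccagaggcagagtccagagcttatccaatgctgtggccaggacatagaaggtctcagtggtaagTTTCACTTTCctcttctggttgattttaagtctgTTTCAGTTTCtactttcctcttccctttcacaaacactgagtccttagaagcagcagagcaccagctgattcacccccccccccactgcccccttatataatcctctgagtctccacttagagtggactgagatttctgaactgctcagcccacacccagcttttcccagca
Gbp3, chr3:142559794-142560093, plus strand: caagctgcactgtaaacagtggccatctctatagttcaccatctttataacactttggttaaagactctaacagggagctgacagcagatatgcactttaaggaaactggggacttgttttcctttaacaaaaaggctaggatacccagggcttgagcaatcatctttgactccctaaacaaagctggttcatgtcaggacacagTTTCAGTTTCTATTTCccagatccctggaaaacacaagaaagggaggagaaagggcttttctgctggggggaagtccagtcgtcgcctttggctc
The capitals begin 78, 72 and 66 bases before the start site in Isg15, where 3 matches overlap. They begin 104 and 85 bases before it in Ifit1, 156 and 122 in Ifit3, and 45 and 39 in Gbp3. Ifit3 shared a locus with Ifit3b, at 2.74 in untreated, 0.263 in Mll1-deleted and 2.81 in 2i cells with a ratio of −1.59. Gbp3, a guanylate-binding GTPase, was at 1.26, 0.168 and 1.54 with a ratio of −1.12.

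Secreted proteins of acute phase and inflammation were lower at 9 of 17 loci (52.9%), 8 with separate intervals, and higher at none, with a median of −1.06. Saa3, a serum amyloid A protein, was at 47.8 [38.3 to 57.3] in untreated, 6.36 [4.52 to 8.19] in Mll1-deleted and 132 [107 to 156] in 2i cells, with a ratio of −4.17. The chemokine gene Cxcl5 was at 6.83, 1.27 and 9.99, Ptx3, a pentraxin, at 3.12, 3.04 and 16.5, and Cxcl12 at 15.7, 8.47 and 36.0. Among the 8 with separate intervals, the untreated interval overlapped that of 2i only in 5, that of deletion only in 1 and neither in 2. The same shares over all 415 lower loci with separate intervals were 22.7%, 37.1% and 21.0%. Ccl2 was at 25.8 and 41.1 and Icam1 at 53.1 and 42.6, both under 2-fold. Fibroblasts are a known source of several of these proteins, and the part of the feeder difference in this list was not tested.

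Large differences were ranked among loci with separate intervals, an FPKM of 5 or more in 1 of the groups and a count ratio of at least 2-fold the same way, which 295 lower and 262 higher loci met. Among the 12 of them with the lowest ratios, several are in none of the gene lists described so far. S100g, the calcium-binding protein calbindin-D9k that vitamin D controls in gut, was at 13.0 [3.41 to 22.7] in untreated, 1.56 [0.00 to 4.06] in Mll1-deleted and 80.2 [56.0 to 104] in 2i cells. Its ratio of −4.99, a 31.7-fold difference in FPKM + 1, was the lowest among the named loci. Cyp26a1, the enzyme that breaks down retinoic acid and that retinoic acid induces, was at 36.4 [27.4 to 45.4], 2.64 [0.788 to 4.49] and 31.7 [24.2 to 39.1], with a ratio of −3.17. Here the group that stood apart was the deletion. Stra6, a receptor for retinol uptake, was also lower at 0.475 against 3.29, and these 3 were the called ones of 15 loci for retinoid and vitamin D handling. Crabp1 was at 201 and 252, and Vdr, the vitamin D receptor, at 1.66 and 1.29. Aqp8, a water channel, was at 8.99, 2.09 and 32.3 with a ratio of −3.43. Igfbp5, which binds insulin-like growth factors, was at 18.7, 3.33 and 42.4, and Pth1r, the receptor of parathyroid hormone, at 16.3, 3.14 and 38.8. In Aqp8, Igfbp5 and Pth1r all 3 intervals were apart, with the deletion lowest. Clec3b, the plasminogen-binding protein tetranectin, was at 0.253, 0.212 and 9.24, and Trpm1, a cation channel, at 5.02, 3.73 and 32.7. For these 2 the 2i value stood apart. Serpina3n, a serine protease inhibitor, was at 42.4, 19.8 and 156, and Hs3st1, a heparan sulfate sulfotransferase, at 16.6, 3.50 and 32.7. Col1a1 of the fibroblast list was also among the 12, and the part of feeder cells in these differences was not tested.

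**Figure D4:**
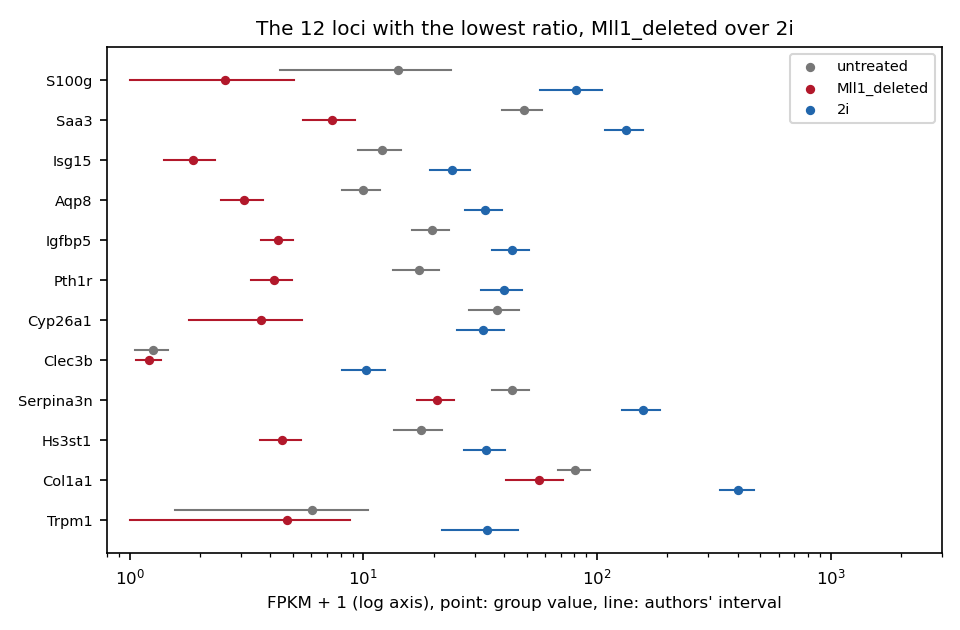
FPKM + 1 on a log axis is shown for the 12 loci with the lowest log2 ratio among the 295 lower loci that met the conditions on intervals, FPKM and counts, the lowest at the top. Points are group values in untreated (grey), Mll1-deleted (red) and 2i cells (blue), and lines are the authors' limits. S100g at the top runs from 1.56 to 80.2 FPKM between Mll1-deleted and 2i cells, and the grey points lie between the other colours in every row but that of Cyp26a1.

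The 12 loci with the highest ratios under the same conditions were mostly at moderate levels. Loci that did not meet them, such as Hand1, are left out of this order. The highest ratio, 4.19, was that of the locus of Gm15893 and Mir378b, at 22.4 in Mll1-deleted and 0.279 in 2i cells, but its log2 ratio by estimated counts was 1.22. Dpep3, already described, and the locus of Gm29439 and Gm29440, with 5.64 against 0.228, came next in this order. Slco4a1, an organic anion transporter, was at 4.77 in untreated, 10.8 in Mll1-deleted and 1.57 in 2i cells, and its 3 intervals were apart. Vax2, a homeobox gene of the ventral eye, was at 7.86, 19.9 and 3.80. Lrp8, a receptor for reelin and apolipoprotein E, was at 3.72, 9.45 and 1.47. Enpp3, an ectonucleotidase, was at 56.0, 44.0 and 9.99, so that its untreated level was on the side of deletion. Kif26a, an atypical kinesin, had a ratio of 2.00, Cacna1b, a neuronal calcium channel, of 2.00, Pcsk1n, a proprotein convertase inhibitor, of 1.97, and AU015836 of 2.02.

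Among metabolic genes, the glucose sensing list had 1 higher and no lower locus of 5. Over all loci, 3.48% were higher and 3.37% lower. Txnip, which restrains glucose uptake and binds thioredoxin, was at 135 [89.5 to 180] in untreated, 506 [366 to 645] in Mll1-deleted and 150 [103 to 197] in 2i cells, with a ratio of 1.75. Its paralog Arrdc4, a target of the same glucose-sensing factors, was at 14.8, 32.9 and 32.8, and so did not separate the treated groups. Pdk1, the kinase that holds back pyruvate dehydrogenase, was at 99.9, 123 and 40.7 with a ratio of 1.57. It and Bnip3 were the called ones of 23 loci of glycolysis and hypoxia. The glycolytic enzymes themselves were close, with Aldoa at 725 and 794 and Eno1 at 617 and 628. In cholesterol and fatty acid synthesis 2 of 27 loci were higher, Acaca and Dhcr7, with ratios of 1.20 and 1.06, and Fasn was lower with −1.05. Intervals were separate for 1 of the 2 higher loci and for Fasn. By estimated counts the ratios were 0.81 for Acaca, 1.16 for Dhcr7 and −0.80 for Fasn, so only Dhcr7 stayed past 2-fold. Acaca and Fasn encode consecutive enzymes of fatty acid synthesis. PPAR and lipid genes had 1 higher of 12 loci, Pdk4, with a ratio of 1.02 and overlapping intervals.

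Genes of the ATF4 and unfolded protein response had 17 of 20 ratios below 0 and a median of −0.58. The called loci were 15% of the list, all lower, against 3.37% lower over all loci. They were Trib3, a pseudokinase that ATF4 induces, at 50.5 against 142, Atf3 at 8.40 against 20.9, and Shmt2, of mitochondrial serine metabolism, at 235 against 507. Asns, asparagine synthetase, was at 680 and 1185 with a ratio of −0.80. The chaperone gene Hspa5, of the unfolded protein branch, was at 448 and 508. Of the 14 metallothionein and NRF2 loci, Mt2 and Hmox1 (14.3%) were lower, with ratios of −1.27 and −1.01. Nqo1 and Gclc (14.3%) were higher, with 1.14 and 1.02. Of the 26 loci of the p53 list, Rrm2b, Pmaip1 and Polk (11.5%) were higher, with 1.55, 1.10 and 1.02. A small locus of Zmat3 (3.85%) was lower with overlapping intervals. The best known p53 target, Cdkn1a, was at 144 and 246 at its main locus, under 2-fold. Among 25 cell cycle loci, Ccnd2, which encodes cyclin D2, was called lower, at 21.7 against 103, but its intervals overlapped and its untreated value was 44.6. Ccnd1 was at 53.4 and 92.6, and Cdk1 at 345 and 281.

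Imprinted genes counted 3 higher of 31 loci and none lower. The main locus of Peg3, a paternally expressed zinc finger gene, was at 31.8 in untreated, 24.8 in Mll1-deleted and 8.80 in 2i cells with a ratio of 1.39. Phlda2, a maternally expressed placental gene, had a ratio of 1.02. The other was a locus that joined Rian with small RNA genes, at 285 against 128 with overlapping intervals. H19, which shared a locus with Mir675, was at 394 and 706, and Igf2 at 97.2 and 155. Epithelial adhesion genes had 10 of 14 ratios above 0 with a median of 0.50. Cldn3, a tight junction claudin, was higher at 3.68 against 1.00, and Esrp2, a splicing regulator of epithelia, lower with a ratio of −1.13 and overlapping intervals. Cdh1, E-cadherin, was at 164 and 154, and Epcam at 147 and 76.8.

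For each called locus the untreated interval was set beside those of the 2 groups. Of the 415 loci that were lower in Mll1-deleted cells with separate intervals, the untreated interval overlapped that of deletion only in 154 (37.1%) and that of 2i only in 94 (22.7%). It overlapped both in 80 and neither in 87. Of the 391 that were higher, it overlapped deletion only in 121 (30.9%) and 2i only in 123 (31.5%), both in 110 and neither in 37. Where it overlapped neither, it lay between the groups in 82 of the 87 and in 33 of the 37. The other 9 loci had untreated values outside both groups. Among them, Pou3f1, Nog and Car4 were highest in untreated cells. Nog, a BMP antagonist, was at 4.91 in untreated, 0.681 in Mll1-deleted and 2.85 in 2i cells, and Car4, a carbonic anhydrase, at 43.3, 14.1 and 4.61. Gm10800, Gm10801 and Myrf were highest in untreated cells as well, and Fetub and Ly6k lowest.

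**Figure D5:**
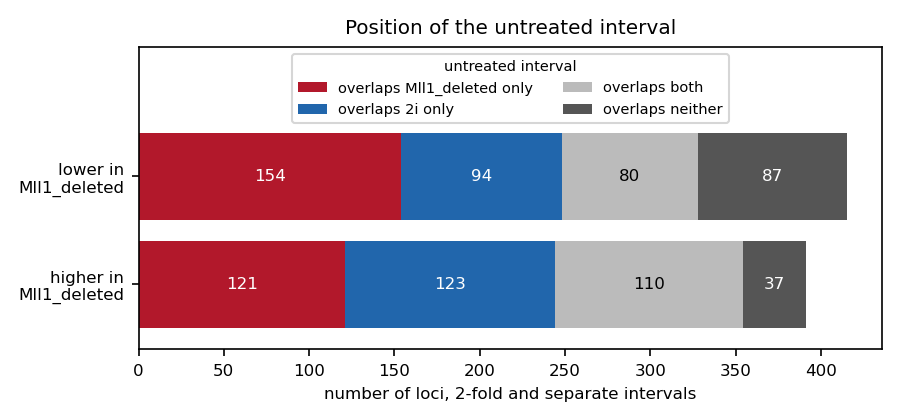
Bars count the loci that were at least 2-fold lower (415) or higher (391) in Mll1-deleted than in 2i cells with separate intervals. Colours divide them by whether the untreated interval overlapped that of Mll1-deleted cells only, 2i cells only, both or neither. Among lower loci 154 share the untreated range with deletion and 94 with 2i, while among higher loci the counts are 121 and 123.

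Some called loci were neighbours. Runs of at least 3 loci called in the same direction with separate intervals, with gaps of at most 100 kb, numbered 9. On chromosome 12, between 104214544 and 104414329 (mm10), 5 loci of Serpina3 protease inhibitors were lower, with ratios from −2.92 to −1.86. Serpina3h was at 6.65 in untreated, 3.82 in Mll1-deleted and 24.8 in 2i cells. On chromosome 3, between 90511034 and 90624433, 5 loci of S100a calcium-binding proteins were lower, led by the locus of S100a3 and S100a4, and S100a1 and S100a13 among them are listed over the same interval. S100a6 was at 318 in Mll1-deleted and 740 in 2i cells. The complement genes C1qa, C1qb and C1qc on chromosome 4 (136880129 to 136898803) were lower as well, with C1qa at 0.682 against 4.31. Serpina3 genes are close copies of each other, so their reads may have been divided between them. The part of feeder cells in the lower runs was not tested. On chromosome 3, Txnip stood beside Polr3gl and Ankrd34a, which were also higher, with ratios of 1.27 and 1.47. On chromosome 15, Arc, Them6 and Ly6k were higher, and Arc, a synaptic gene, was at 3.0, 10.6 and 2.27.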

How the data were processed

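RNA was sequenced from libraries made with the Illumina TruSeq protocol from column-purified, DNase-treated RNA, per the labels' protocols. Tools listed in the submitters' processing notes, with no role stated, are deepTools, SAMtools 1.5 and TopHat2 2.1.1, and the build is mm10. The authors deposited FPKM values with a lower and an upper limit per group, and, per the file headers, estimated counts with their variances, each pooling the 2 libraries of a group. The program that made them, how the limits were set and whether counting used strand are not given in the sources used here. Whether the limits include the spread between replicates is therefore not known, and they are not read as a measure of it here.

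The tables were joined by locus. Loci that join several gene names (1420 of 15805) cannot be divided, and 515 share a name with another locus. Names were taken from the FPKM table. The ratio was log2((FPKM + 1) of Mll1-deleted over 2i), and ratios of estimated counts used a pseudocount of 10 after scaling. No test was run, since each group has 1 value, and the depth of a value is its estimated count. The 32 gene lists and the loci were chosen with earlier results of these data known, so a list's count supports nothing independently. Listed genes without a locus among the 15805 are left out of the counts. Such a locus was held by 21 of 28 endoderm, 17 of 21 trophoblast and 17 of 23 acute phase genes. The genes named were Kmt2a, the 12 largest ratios in each direction among loci with separate intervals, an FPKM in 1 group of 5 or more and a 2-fold count ratio in the same direction, and the 4 largest ratios of each list. Others, including those under 2-fold, the genes whose untreated value lay outside both groups and the neighbours, were chosen after their values were seen. Scripts were checked on simulated data and used Python 3.11.15 with pandas 2.3.3, numpy 2.4.6 and matplotlib 3.10.9. The 11 alternatives are described at the end. Some loci that this rule takes are not reported here.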

Additional observations from a re-analysis of the deposited data

How the results depend on the processing

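No paired analysis was possible because each deposited column pools the 2 libraries of its group, and for the same reason leaving out a replicate could not be run. The 1083 calls (550 higher, 533 lower) became 2240 (1324, 916) with a pseudocount of 0.1, 349 (115, 234) with 5, 2432 (1609, 823) by estimated counts and 1804 (966, 838) with no count minimum. At 1.5-fold there were 3991 (2078, 1913) and at 3-fold 228 (84, 144). A minimum of 10 or 500 counts gave 1219 and 913, leaving out loci of several names 969, and centring the median 1110. By estimated counts 968 of the 1083 calls kept their direction and call, and after centring 1027. The share of calls higher in Mll1-deleted cells ran from 33.0% with a pseudocount of 5 to 66.2% by estimated counts. No log2 ratio of the 144 loci named by rule changed sign under the alternatives tried for them. The medians of the MLL, glycolysis and cell cycle lists changed sign by estimated counts, all from −0.05 to 0.04. Among low loci the added 1 limits what can be called, and 114 of the 1083 calls had a count ratio under 2-fold. The cause of these shifts was not tested.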
